A study of Mus musculus with 5 samples.

Results

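The gene set described here holds transcripts of Paneth cells and of other intestinal epithelial cells. Its members were chosen by name: every gene whose symbol starts with Defa, the alpha-defensins, and 21 further genes of Paneth cells, enterocytes, goblet cells and epithelium in general. The count table holds 52 of them among 27179 gene identifiers: 31 alpha-defensins, of the 40 symbols that the annotation gives to that family, and all 21 further genes. The set was proposed from the levels of these genes in these libraries, so the levels below are a description and support nothing by themselves.

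RNA was sequenced from sorted lymphocytes of C57BL/6 mice, in a series on support of regulatory T cells by innate lymphoid cells in the intestine. There were 3 libraries of group 3 innate lymphoid cells (ILC3), sorted by a GFP reporter together with CD45+, CD3- and CD127+, and 2 libraries of CD4 T cells, sorted as CD45+CD3+CD4+. The cells came from 3 mice described as wild type, with no treatment named. Neither the tissue that was sorted nor the age of the mice is stated in the labels. Nothing ties a replicate number to a mouse, so p-values measure only the spread between these libraries, which may be technical. Neither gate is meant to hold epithelial cells, which lack CD45.

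Paneth cells sit at the base of the crypts of the small intestine and secrete granules of antimicrobial peptides and enzymes. Alpha-defensins are small peptides, called cryptdins in the mouse, that the cells make as inactive precursors. The metalloproteinase MMP7 cuts them to the active form, and lysozyme and an angiogenin are released beside them. REG3 lectins, made by Paneth cells and enterocytes, bind bacterial surfaces. Keratins, E-cadherin, villin and EpCAM are structural and adhesion proteins shared by intestinal epithelial cells.

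The alpha-defensins of the mouse form an array on chromosome 8 that holds groups of near-identical copies (positions 21025545 to 21735471 in GRCm38 for the members from Defa21 to Defa24), so their sequences bear on how well reads can be told apart. The coding ends of 5 of them are shown because they span the range from most counted to never counted. Each line gives the end of the coding sequence, 5′ to 3′, which encodes most of the mature peptide, from the GENCODE transcripts of GRCm38, and capitals mark bases that differ from Defa24, position by position.
Defa24: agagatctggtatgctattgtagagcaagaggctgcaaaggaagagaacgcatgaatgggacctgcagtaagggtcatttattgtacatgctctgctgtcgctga
Defa30: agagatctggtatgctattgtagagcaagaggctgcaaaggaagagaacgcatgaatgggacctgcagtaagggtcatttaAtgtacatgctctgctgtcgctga
Defa23: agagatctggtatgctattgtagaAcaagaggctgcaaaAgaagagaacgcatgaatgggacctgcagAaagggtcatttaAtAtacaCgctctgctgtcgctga
Defa17: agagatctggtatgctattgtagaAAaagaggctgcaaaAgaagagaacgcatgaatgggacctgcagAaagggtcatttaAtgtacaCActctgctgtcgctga
Defa22: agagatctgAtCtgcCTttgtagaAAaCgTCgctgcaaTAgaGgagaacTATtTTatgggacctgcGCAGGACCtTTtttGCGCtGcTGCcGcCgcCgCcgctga
Defa30 differed from Defa24 at 1 of these bases and at 4 of all 282 coding bases, Defa23 at 6 and 12, Defa17 at 7 and 12, and Defa22 at 39 and 58. The coding sequence of Defa17 was identical to that of Defa3, and that of Defa23 to that of Defa31. Defa21 and Defa22 differed at 2 bases.

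How much of each transcript is its own was measured by cutting it into overlapping words of 50 bases and counting those found in no other gene of the annotation. Defa24 had 71.9% such words, Defa30 47.6%, Defa22 25.1%, Defa17 8.05% and Defa23 5.25%. The 10 alpha-defensins with a transcript and no count in any library had between 0% and 5.25% (median 0%), and 6 of them had none. The 18 with a count had a median of 42.0%, and the 1 among them without a unique word, Defa33, had a single count. The 10 most counted alpha-defensins of CD4 T replicate 2 all had unique words, from 8.05% to 71.9%. How reads that match several genes were handled is not stated in the labels, so a count of 0 for Defa23, Defa31, Defa5 or Defa20 does not show that their transcripts were absent, and the split of counts among near-identical copies is uncertain.

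**Figure D1:**
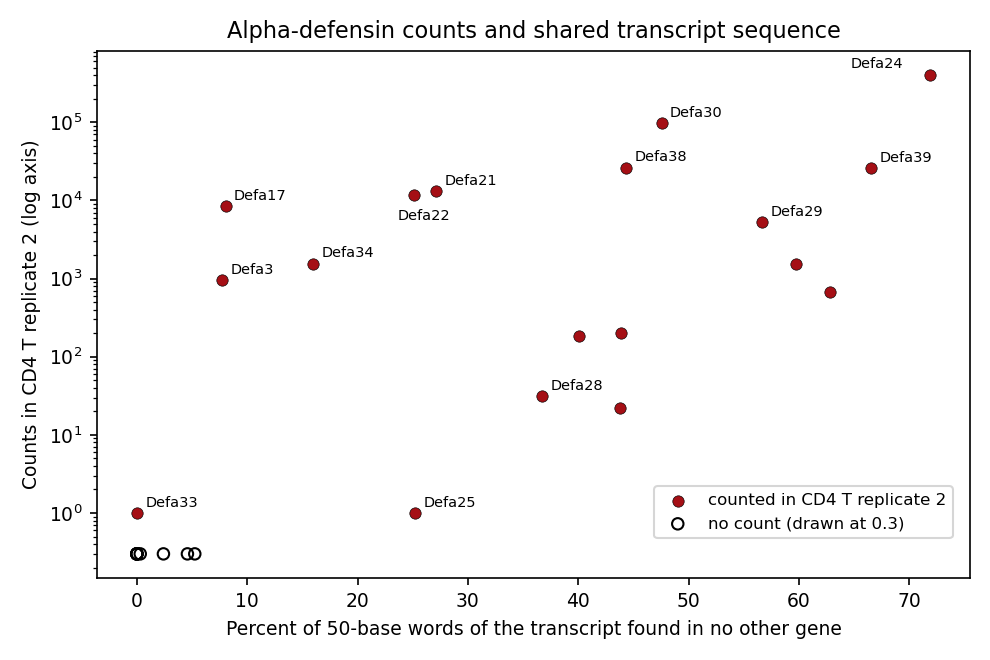
Counts in CD4 T replicate 2 (log axis) against the percent of 50-base words of the transcript found in no other gene, 1 point for each of 28 alpha-defensins with an annotated transcript. Open circles are genes with no count, drawn below the axis value of 1 count; all of them lie at or below 5.25%.

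Promoters were available for 16 alpha-defensins. The 120 bases before the annotated start are shown for 3 of them, as Defa21 and Defa30 were counted and Defa23 was not. They come from RefSeq (GRCm38.p6), all on the plus strand, with the motifs TATAAA (the TATA box) and CTTTGA (the core of the TCF and LEF site of Wnt signalling), on either strand and without overlap of each other, in capitals.
Defa21, chr8:21025425-21025544: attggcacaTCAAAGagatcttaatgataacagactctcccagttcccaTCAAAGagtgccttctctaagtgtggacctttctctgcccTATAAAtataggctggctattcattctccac
Defa23, chr8:21054920-21055039: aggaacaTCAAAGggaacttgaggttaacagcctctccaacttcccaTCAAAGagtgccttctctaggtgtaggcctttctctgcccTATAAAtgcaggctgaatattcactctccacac
Defa30, chr8:21134530-21134649: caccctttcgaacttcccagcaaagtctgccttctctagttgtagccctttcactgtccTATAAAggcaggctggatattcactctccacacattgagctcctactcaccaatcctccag
TATAAA was found in 15 of the 16 windows, against 6.76% of 27025 promoter windows of all genes, and CTTTGA in 10 of 16, against 6.18%. In Defa21 and Defa23 the first base of TATAAA lies 31 and 33 bases before the annotated start, and in Defa30 it lies 61 bases before, so the annotated starts are not placed alike. The matches describe these windows only. Defa23, with no count, carries the same pair of CTTTGA matches as Defa21, which had 13017 counts in 1 library.

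The libraries held between 15123715 and 25956023 counts. Levels are given as CPM, counts per 1000000 counts after TMM scaling (trimmed mean of M values) of library sizes, and 3 counts, the limit that a count of 0 allows, correspond to 0.108 to 0.192 CPM. As a check of the labels, Il22, the leading cytokine of ILC3, was 21459, 19438 and 19671 CPM in ILC3 and 13.3 and 141 CPM in CD4 T. Summed over 7 T cell markers, levels were 549, 720 and 274 CPM in ILC3 and 1133 and 2651 CPM in CD4 T. Single markers overlapped, as Cd3g was 361, 470 and 160 CPM in ILC3 and 279 and 1308 CPM in CD4 T, and Cd3e in CD4 T replicate 1 (54.8 CPM) was below ILC3 replicates 1 and 2 (65.2 and 69.8 CPM). Transcripts known from other cells were found too, and whether whole cells carried them was not tested: 9 myeloid and dendritic cell markers summed to 2122 and 2857 CPM in CD4 T and to 111, 147 and 151 CPM in ILC3. Summed B and plasma cell markers reached 21763 to 101758 CPM in ILC3 replicates 2 and 3 and both CD4 T libraries, and 18933 CPM in ILC3 replicate 1, nearly all from Jchain, while the B cell factor Pax5 had no count anywhere.

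CD4 T replicate 2 stood apart from the other 4 libraries for this gene set. All members together had 1324, 262 and 845 counts in ILC3 replicates 1 to 3, 2953 in CD4 T replicate 1 and 758563 in CD4 T replicate 2, where they made up 5.02% of the library. Of the 39 members with a count in any library, 38 were highest in CD4 T replicate 2; the exception was Lgals4. The other 13 members, 12 alpha-defensins and Reg3a, had no count. In CD4 T replicate 2, 36 members had more than 3 counts, against 17 in CD4 T replicate 1 and 14, 9 and 14 in ILC3 replicates 1 to 3. Results between the groups are therefore given with and without this library.

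Alpha-defensins were among the most abundant transcripts of CD4 T replicate 2. Their summed level was 21.5, 3.71 and 28.8 CPM in ILC3, 68.7 CPM in CD4 T replicate 1 and 32431 CPM in CD4 T replicate 2. CD4 T replicate 2 was 472 times CD4 T replicate 1 (counting interval 450 to 495) and 1707 times the summed ILC3 libraries (1611 to 1810). It held 99.5% of all 602726 alpha-defensin counts, or 3.97% of its own counts. In bulk RNA, fewer cells of a type and less RNA per cell cannot be told apart, so these levels do not give a number of Paneth cells.

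Defa24 (NCBI gene 503491, chromosome 8, 21734494 to 21735471) made up most of these counts. It had 436, 28 and 359 counts in ILC3 replicates 1 to 3 (15.7, 1.79 and 21.0 CPM), 1398 in CD4 T replicate 1 (55.3 CPM) and 405943 in CD4 T replicate 2 (21948 CPM). It was the gene with rank 2 by counts in CD4 T replicate 2, with 2.68% of the library, and rank 2250 in CD4 T replicate 1. Both CD4 T libraries lay above all ILC3 libraries, but CD4 T replicate 1 was 4.07 times the summed ILC3 libraries (3.73 to 4.44), while CD4 T replicate 2 was 397 times CD4 T replicate 1 (376 to 418).

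Defa30 (chromosome 8, 21134650 to 21135598), the near-copy of Defa24 shown above, was the next. Its levels were 2.77, 0.512 and 4.32 CPM in ILC3, 5.78 CPM in CD4 T replicate 1 and 5292 CPM in CD4 T replicate 2, where it ranked 10. Per kilobase of annotated exon, Defa24 stood at 52381 and Defa30 at 13296 CPM in that library.
Defa38 and Defa39 belong to a group with a longer coding sequence, 351 bases, and came after them. Defa38 was 0.793, 0.384 and 0.759 CPM in ILC3, 1.504 CPM in CD4 T replicate 1 and 1422 CPM in CD4 T replicate 2. Defa39 was 1.04, 0.448 and 0.934 CPM in ILC3, 2.10 CPM in CD4 T replicate 1 and 1397 CPM in CD4 T replicate 2. Their relative Defa29, of the same coding length, had 2, 1 and 1 counts in ILC3, 1 count in CD4 T replicate 1 and 5327 counts (288 CPM) in CD4 T replicate 2.

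The remaining well counted alpha-defensins were also highest in CD4 T replicate 2. Defa21 was 0.072, 0.064 and 0.525 CPM in ILC3 and 0.989 and 704 CPM in CD4 T replicates 1 and 2. Defa22 was 0.684, 0.192 and 0.584 CPM in ILC3 and, in CD4 T replicates 1 and 2, 1.504 and 638 CPM. Defa17 was 0.324, 0.256 and 0.292 CPM in ILC3 and 0.752 and 462 CPM in CD4 T. For each of these genes, and for Defa24, Defa30, Defa38 and Defa39, CD4 T replicate 1 was also above every ILC3 library. Defa29 is the exception, with 1 or 2 counts in each library other than CD4 T replicate 2. These 8 genes held 99.1% of the alpha-defensin counts of CD4 T replicate 2.

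At lower levels, Defa3 had 1, 0 and 2 counts in ILC3, 17 in CD4 T replicate 1 and 949 (51.3 CPM) in CD4 T replicate 2. Defa26 had 5 counts in ILC3 replicate 3 and 1550 (83.8 CPM) in CD4 T replicate 2, and none elsewhere. Defa34 had 1 count in CD4 T replicate 1 and 1555 (84.1 CPM) in CD4 T replicate 2. Defa40 had 683 counts (36.9 CPM) in CD4 T replicate 2 and none in the other 4 libraries, so it was at least 311-fold above CD4 T replicate 1. The others with a count, Defa41, Defa35, Defa28, Defa27, Defa-ps1, Defa25 and Defa33, had from 1 to 200 counts in CD4 T replicate 2 and, except for 1 count of Defa35 in ILC3 replicate 1, none elsewhere.

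**Figure D2:**
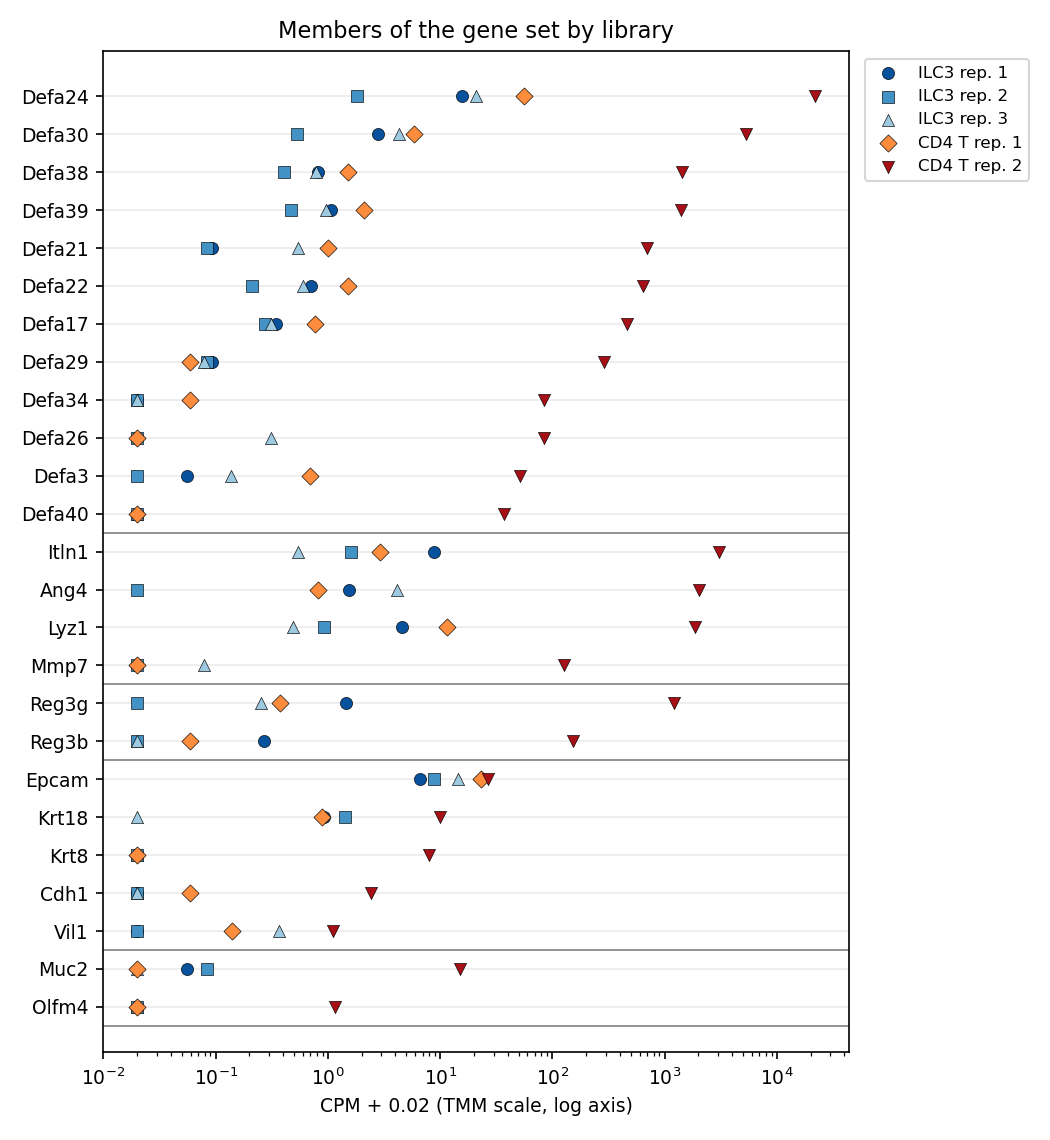
CPM plus 0.02 on a log axis, with 1 point for each library. Shown are the 19 members of at least 20 CPM in any library and Cdh1, Vil1, Krt8, Krt18, Muc2 and Olfm4. Blocks from the top are alpha-defensins, other Paneth cell products, REG3 lectins, general epithelial genes, and Muc2 with Olfm4. CD4 T replicate 2 reached 21948 CPM for Defa24, and the points of Epcam lie between 6.59 and 26.9 CPM in all libraries.

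Other secreted products of Paneth cells were high in the same library. Itln1 (chromosome 1, 171518123 to 171535325), which encodes a lectin that binds microbial sugars, was 8.79, 1.60 and 0.525 CPM in ILC3, 2.89 CPM in CD4 T replicate 1 and 3084 CPM in CD4 T replicate 2. ILC3 replicate 1 thus lay above CD4 T replicate 1, and the groups overlapped. Ang4 (chromosome 14, 51763892 to 51773590), an angiogenin with antimicrobial activity, was 1.51, 0 and 4.14 CPM in ILC3 and 0.791 and 2030 CPM in CD4 T. Here too the groups overlapped, as 2 ILC3 libraries were above CD4 T replicate 1.

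Lyz1 (chromosome 10, 117287795 to 117292868), the lysozyme of Paneth cells, was 4.57, 0.895 and 0.467 CPM in ILC3, 11.5 CPM in CD4 T replicate 1 and 1878 CPM in CD4 T replicate 2. CD4 T replicate 2 was 163 times CD4 T replicate 1 (counting interval 145 to 184). Lyz2, the neighbouring lysozyme gene used by myeloid cells, is a near-copy, and reads may be split between them. It was 99.5, 132 and 140 CPM in ILC3 and 657 and 1590 CPM in CD4 T, so the levels of Lyz1 and Lyz2 did not keep a fixed ratio. Mmp7 (chromosome 9, 7692090 to 7699585), which encodes the enzyme that activates alpha-defensins, had 1 count in ILC3 replicate 3, none in the other ILC3 libraries or CD4 T replicate 1, and 2352 counts (127 CPM) in CD4 T replicate 2. Per kilobase of annotated exon, the levels in CD4 T replicate 2 were 2863 CPM for Ang4, 2703 for Itln1, 1487 for Lyz1 and 119 for Mmp7.

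Of the REG3 lectins, Reg3g (chromosome 6, 78466269 to 78468874), which acts on Gram-positive bacteria, was 1.44, 0 and 0.233 CPM in ILC3, 0.356 CPM in CD4 T replicate 1 and 1208 CPM in CD4 T replicate 2. Its groups overlapped through ILC3 replicate 1. Reg3b had 7, 0 and 0 counts in ILC3, 1 in CD4 T replicate 1 and 2820 (152 CPM) in CD4 T replicate 2. Reg3a had no count in any library. The summed REG3 level of CD4 T replicate 2 was 3439 times that of CD4 T replicate 1, with a counting interval of 1870 to 7172 that rests on 10 counts.

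General epithelial genes were low in all libraries, CD4 T replicate 2 included. Epcam, an adhesion molecule of epithelium that some immune cells also carry, was 6.59, 8.89 and 14.5 CPM in ILC3 and 23.1 and 26.9 CPM in CD4 T. It was the only member of at least 20 CPM in CD4 T replicate 2 whose ratio to CD4 T replicate 1 was near 1 (1.16, counting interval 1.03 to 1.31). The other 18 such members were at least 76.3 times CD4 T replicate 1 or, where that library had no count, at least 311-fold above its limit.

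Krt8 and Krt18 form the keratin pair of simple epithelia. Krt8 had no count in 4 libraries and 146 counts (7.89 CPM) in CD4 T replicate 2, at least 66.5-fold above CD4 T replicate 1. Krt18 had 25, 22 and 0 counts in ILC3 and 22 and 183 counts in CD4 T, or 0.871 and 9.89 CPM. Cdh1, which encodes E-cadherin, had 1 count in CD4 T replicate 1 and 44 (2.38 CPM) in CD4 T replicate 2, and none in ILC3. Vil1, which encodes the villin of the brush border, had 0, 0 and 6 counts in ILC3 and 3 and 20 counts in CD4 T. Krt19 and Krt20 had 20 counts and 1 count in CD4 T replicate 2. The 7 general genes, Epcam included, summed to 49.3 CPM in CD4 T replicate 2 and 24.1 CPM in CD4 T replicate 1, a ratio of 2.04 (1.84 to 2.27). Epcam carried this sum: the other 6 genes had 26 counts in CD4 T replicate 1 and 414 in CD4 T replicate 2, or 1.03 and 22.4 CPM, a ratio of 21.8 (14.6 to 33.7), where alpha-defensins had a ratio of 472. The Paneth transcripts named in the set thus stood at far higher levels in CD4 T replicate 2 than its general epithelial transcripts.

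Enterocyte members were low in every library, and 3 of the 4 were highest in CD4 T replicate 2. Fabp1 and Fabp2, the fatty acid binding proteins of absorptive cells, had 25 and 26 counts in CD4 T replicate 1, 151 and 71 in CD4 T replicate 2, and in ILC3 a single count of Fabp1. Lgals4, a lectin of the intestinal surface, was the member not highest in CD4 T replicate 2, with 55, 3 and 3 counts in ILC3, 163 in CD4 T replicate 1 (6.45 CPM) and 98 in CD4 T replicate 2 (5.30 CPM). Phgr1 had 52 counts in CD4 T replicate 2 and none elsewhere. Of the goblet cell and crypt members, the mucin gene Muc2 had 1, 1 and 0 counts in ILC3, none in CD4 T replicate 1 and 280 (15.1 CPM) in CD4 T replicate 2. Tff3, a trefoil peptide of mucus, had 290 counts (15.7 CPM), and Olfm4, a marker of crypt base cells, 21 counts (1.14 CPM), both in CD4 T replicate 2 only. The 3 goblet and crypt members together were at least 269-fold above the limit of CD4 T replicate 1. A large ratio was thus not particular to the Paneth transcripts. For the 4 enterocyte members together the ratio was 2.37 (2.00 to 2.82).

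Genes outside the set were read from 8 further lists, of the same cell types, of other intestinal epithelial cells and of pancreatic acinar cells. Of 12 further Paneth genes in the table, 5 were at least 50-fold above every other library in CD4 T replicate 2. Fgfr3 had no count, and the other 6 were highest in that library too, some by little, such as Nupr1 with 66.2 CPM against 65.7 CPM in ILC3 replicate 3. Mptx2, a pentraxin of Paneth cells, was 0.108, 0 and 0.058 CPM in ILC3 and 0.198 and 856 CPM in CD4 T. Spink4 was 0.901, 0.064 and 0.992 CPM in ILC3 and 0.237 and 676 CPM in CD4 T, and Clps, which encodes colipase, had 1 to 4 counts in ILC3 and 0.475 and 324 CPM in CD4 T. Ccl6, a chemokine also made by myeloid cells, was instead high in both CD4 T libraries, at 366 and 399 CPM against 16.6 to 27.7 CPM in ILC3. Pla2g2a, a phospholipase gene that the RefSeq table lists as a transcribed pseudogene, had 809 counts (43.7 CPM) in CD4 T replicate 2 and none elsewhere.

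The lists of other epithelial cells were much lower. Of 20 further enterocyte genes, 12 had no count in any library, among them Apoa1, Apoa4, Sis and Rbp2, and the list's highest gene, Dpp4, which T cells also express, was 8.87 to 28.5 CPM in ILC3 and 17.5 and 24.7 CPM in CD4 T. Of 10 further goblet genes, 7 had a count, and Agr2 was the highest, at 58.9 CPM in CD4 T replicate 2 and 4.03, 0 and 0.058 CPM in ILC3. The 9 stem and progenitor genes summed to 17.3 and 18.9 CPM in CD4 T and 14.4 to 24.2 CPM in ILC3, and Lgr5, the stem cell receptor, had at most 1 count in a library. Among 10 enteroendocrine genes, Reg4 had 1513 counts (81.8 CPM) in CD4 T replicate 2 and none elsewhere, while 5 genes, among them Chgb and Sst, had no count. Gcg, which encodes glucagon and its related peptides, had 5, 0 and 0 counts in ILC3 and stood at 6.57 CPM in CD4 T replicate 1 and 10.5 CPM in CD4 T replicate 2, lower in ILC3 (edgeR adjusted p = 0.0361), without a gap of the alpha-defensins' size between the CD4 T libraries. Of the 8 tuft cell genes, Alox5ap, also a myeloid gene, reached 165 and 125 CPM in CD4 T, and no other gene reached 3 CPM. The 18 junction and keratin regulator genes summed to 127 and 203 CPM in CD4 T and 128 to 144 CPM in ILC3, with Spint2 at 124 to 136 CPM in ILC3 and 63.3 and 139 CPM in CD4 T. Spint1, its relative, was 53.9 and 28.7 CPM in CD4 T and had no count in ILC3 (edgeR adjusted p = 0.00501).

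**Figure D3:**
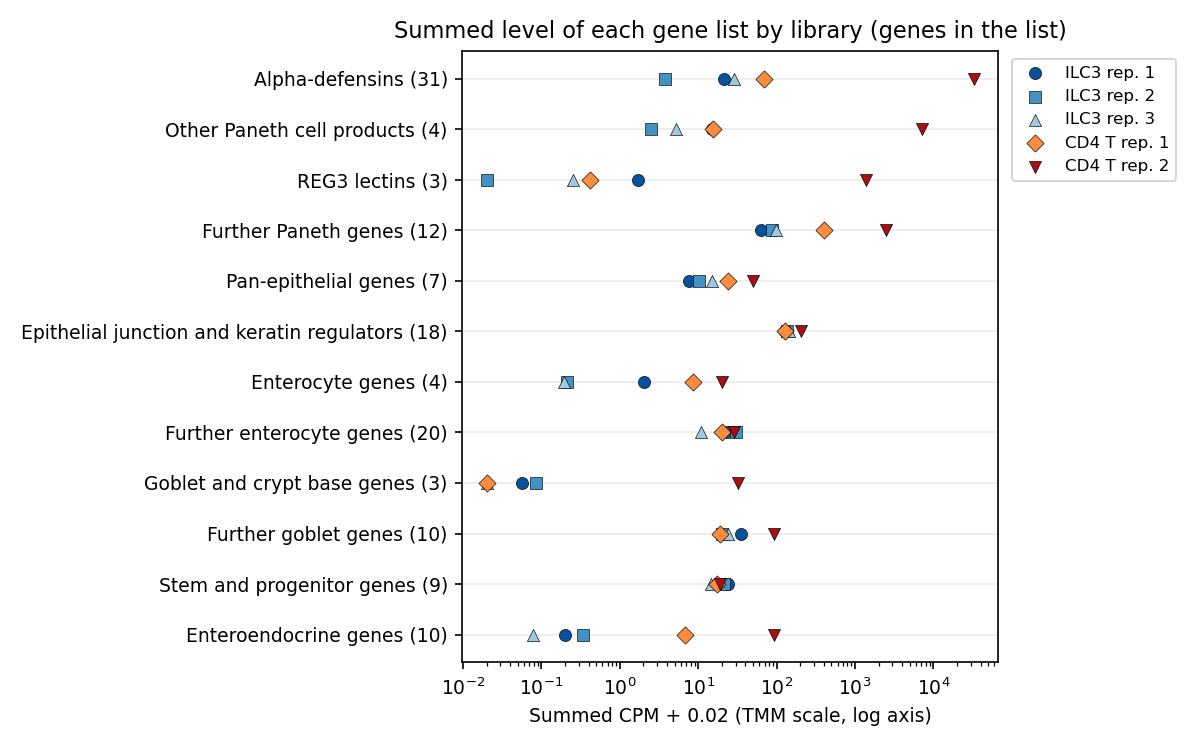
Summed CPM plus 0.02 on a log axis for each list, with 1 point for each library and the number of genes in the table in brackets. In CD4 T replicate 2 the alpha-defensins reached 32431 CPM and the 4 other Paneth cell products 7119 CPM, while the 9 stem and progenitor genes lie between 14.4 and 24.2 CPM in all 5 libraries.

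The make-up of the Paneth transcripts was compared between libraries. Defa24 made up 72.9%, 48.3% and 72.7% of the alpha-defensin counts in ILC3 replicates 1 to 3, 80.5% in CD4 T replicate 1 and 67.7% in CD4 T replicate 2. The exact 95% binomial intervals of CD4 T replicates 1 and 2, 78.6% to 82.4% and 67.6% to 67.8%, did not overlap. ILC3 replicate 2 had only 58 alpha-defensin counts and an interval of 35.0% to 61.8%. Defa30 had 12.9%, 13.8% and 14.98% in ILC3, against 8.41% and 16.3% in CD4 T, so its share in CD4 T replicate 1 (7.15% to 9.82%) was below that in CD4 T replicate 2 (16.2% to 16.4%).

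Ratios of Lyz1, Itln1 and Ang4 to the alpha-defensins differed more. Per 100 alpha-defensin counts there were 21.2, 24.1 and 1.62 counts of Lyz1 in ILC3 replicates 1 to 3, 16.8 in CD4 T replicate 1 and 5.79 in CD4 T replicate 2. Itln1 stood at 40.8, 43.1 and 1.82 in the ILC3 libraries, and at 4.21 and 9.51 in CD4 T. Ang4 stood at 7.02, 0 and 14.4 in the ILC3 libraries, and at 1.15 and 6.26 in CD4 T. ILC3 replicates 1 and 3 had alpha-defensin counts of 598 and 494 but 244 and 9 counts of Itln1. For Lyz1 and Itln1, the exact intervals of all 4 other libraries left out the value of CD4 T replicate 2. Ang4 was mixed. Its intervals in ILC3 replicates 1 and 2 (5.01 to 9.61 and 0 to 6.57) held 6.26, and those in ILC3 replicate 3 and CD4 T replicate 1 did not. The share of Defa30 was mixed too. Its intervals in ILC3 replicates 2 and 3 (6.15% to 25.4% and 11.9% to 18.4%) held 16.3%, and those in ILC3 replicate 1 and CD4 T replicate 1 did not. The share of Defa22 in CD4 T replicate 2 (1.97%) lay within the intervals of all 4 other libraries. Mmp7 (0.392) and Reg3b (0.470) lay within those of the ILC3 libraries, but not of CD4 T replicate 1. They had at most 7 counts in an ILC3 library. Defa17 (1.42%) and Clps (0.999) were outside the interval of ILC3 replicate 2 alone. Reg3g (3.73) and Mptx2 (2.64) were inside that interval alone. These intervals cover counting error alone. Reads were amplified and carried no molecular identifiers, so the intervals do not cover amplification. The source of the low counts was not tested.

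**Figure D4:**
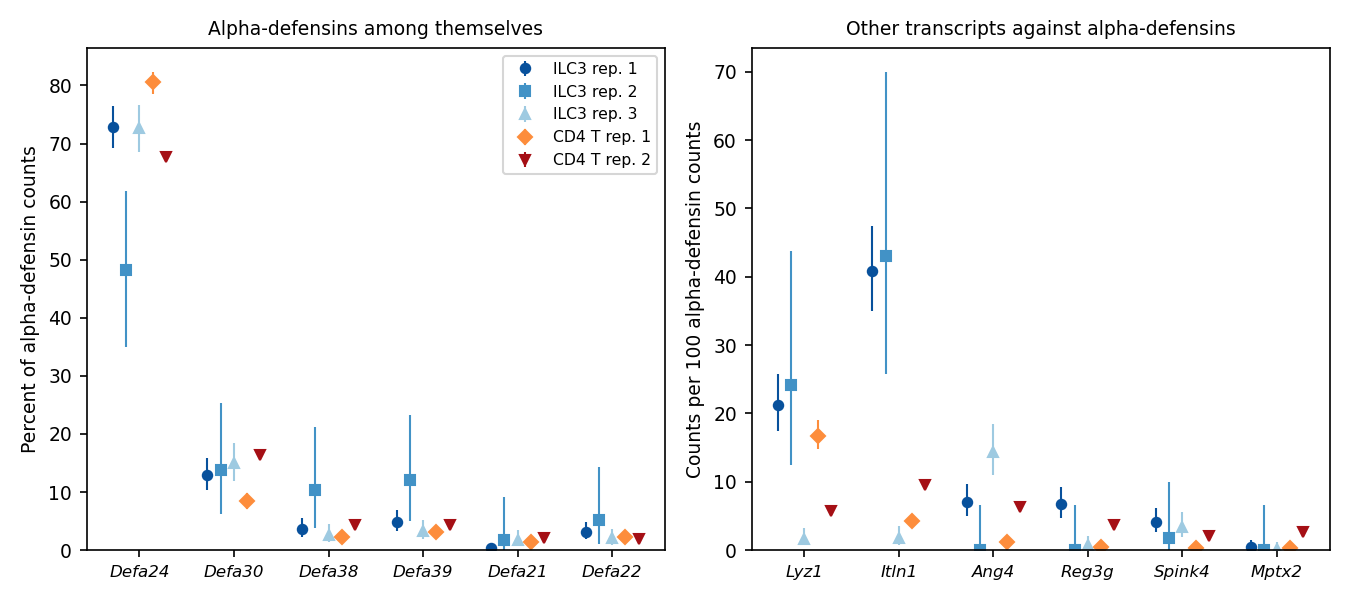
Left, percent of a library's alpha-defensin counts held by 6 alpha-defensins; right, counts of 6 other transcripts per 100 alpha-defensin counts. Points are libraries and bars exact 95% intervals for counting error; Defa24 lies at 80.5% in CD4 T replicate 1 and 67.7% in CD4 T replicate 2, and Itln1 at 40.8 in ILC3 replicate 1 and 1.82 in ILC3 replicate 3.

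Between the groups, the summed alpha-defensin level of ILC3 over CD4 T was -9.82 on the log2 scale, and -1.92 without CD4 T replicate 2. For the other members together it was -7.76, and -1.26 without that library. In the fit over the whole table (edgeR quasi-likelihood test, Benjamini-Hochberg adjusted p under 0.05), 17 members had enough counts in enough libraries to be tested, and the other 35 were not tested. Genes with many counts in CD4 T replicate 2 and few elsewhere, such as Mmp7, Defa29 and Reg3b, were among these. Of the 17, 10 were called lower in ILC3, where 7.21% of 12747 genes were, and 0 higher, where 6.46% were. At an unadjusted p under 0.05 the members were 15 lower and 0 higher, and the share over all genes was not taken there. The 10 were Defa24, Defa30, Defa38, Defa39, Defa21, Defa22, Defa17, Defa3, Lyz1 and Fabp1. The rule of the set rests on these same libraries, so nothing is read from these counts, adjusted or unadjusted. Every ILC3 library lay below both CD4 T libraries for 13 of the 17, where 29.6% of all tested genes did. The exceptions were Itln1, Ang4, Reg3g and Krt18. Some of the 13, such as Fabp1, Fabp2 and Defa3, passed the filter on low counts only through the CD4 T libraries, where they are higher. Nothing is therefore read from the number 13 either.

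Leaving out single libraries changed these calls. Without CD4 T replicate 2, 0 members were called in edgeR and 0 had an unadjusted p under 0.05, with 17 tested; the log2 difference of Defa24 went from -9.74 (SE 2.33) to -2.09 (SE 1.11), and that of Lyz1 from -8.86 (SE 2.08) to -2.51 (SE 1.35). The difference turned sign without this library for Ang4 (1.26), Itln1 (0.35) and Reg3g (0.67). Without CD4 T replicate 1, 20 of 35 tested members were called lower, against 306 of 13769 genes; that fit sets 1 CD4 T library against 3, takes its spread from ILC3 alone and assumes that the lone library varies like them. Its members passed the filter through CD4 T replicate 2, where they are high, so the count supports nothing. Without ILC3 replicate 1, 2 or 3, 0 members were called in either direction, although 13, 14 and 15 had an unadjusted p under 0.05, all of them lower. Of all genes, 346 of 12374, 367 of 12392 and 473 of 12430 were called lower in these fits, and 270, 269 and 323 higher. These are fewer than the 919 lower and 824 higher with all libraries. No share over all genes was taken at the unadjusted p. The myeloid markers, which were also higher in both CD4 T libraries, did not share the gap between them. Their sum in CD4 T replicate 2 was 1.35 times that in CD4 T replicate 1 (1.33 to 1.36). Lyz2, whose reads may be split with Lyz1, carried this rise. Only 3 of the 9 markers were highest in CD4 T replicate 2. In replicates 1 and 2 respectively, these were Lyz2 (657 and 1590 CPM), Cd68 (53.03 and 159 CPM) and Siglech (744 and 813 CPM). The others were highest in replicate 1. Csf1r was 222 and 102 CPM, Itgam 60.8 and 18.9 CPM and Adgre1 128 and 58.9 CPM. Itgax was 134 and 63.3 CPM, Flt3 56.1 and 29.8 CPM and Clec10a 67.6 and 22.3 CPM. The part of other cells in the Paneth transcripts was not tested.

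Over the whole table, few genes set CD4 T replicate 2 so far apart. Of 4777 genes with at least 20 CPM there, 27 (0.565%) were at least 50-fold above every other library. Of these 27, 18 were members, which is no test because the members were named for it. A further 6 were on the further epithelial lists (Mptx2, Spink4, Clps, Reg4, Guca2b and Pla2g2a). This is no test either, as the lists were chosen with earlier results of these data known. The last 3 were on neither: Igkv3-4, an immunoglobulin segment, Pnliprp2, a lipase, and Tm4sf4, a membrane protein. The same count was 0 (0%) for CD4 T replicate 1 and 1 (0.0219%), 6 (0.133%) and 12 (0.261%) for ILC3 replicates 1 to 3.

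The genes outside the set whose pattern over the 5 libraries was nearest to that of the summed alpha-defensins were found by the distance between centred log2(CPM + 0.5) values, among 6580 genes of at least 20 CPM in any library. The nearest was Mptx2 (distance 2.61), followed by Spink4 (2.85), Clps (3.26), Igkv3-4 (3.99), Reg4 (4.12), Guca2b (4.17), Guca2a (4.29), Pla2g2a (4.72), Pnliprp2 (4.99) and Igkv8-28 (5.19). The guanylins Guca2a and Guca2b, peptide hormones of the intestinal epithelium, had 1435 and 1440 counts in CD4 T replicate 2, and Guca2a also had 94 counts in CD4 T replicate 1. Over 5 libraries of which 1 is far above the rest, this likeness mostly records which genes are high in that library.

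**Figure D5:**
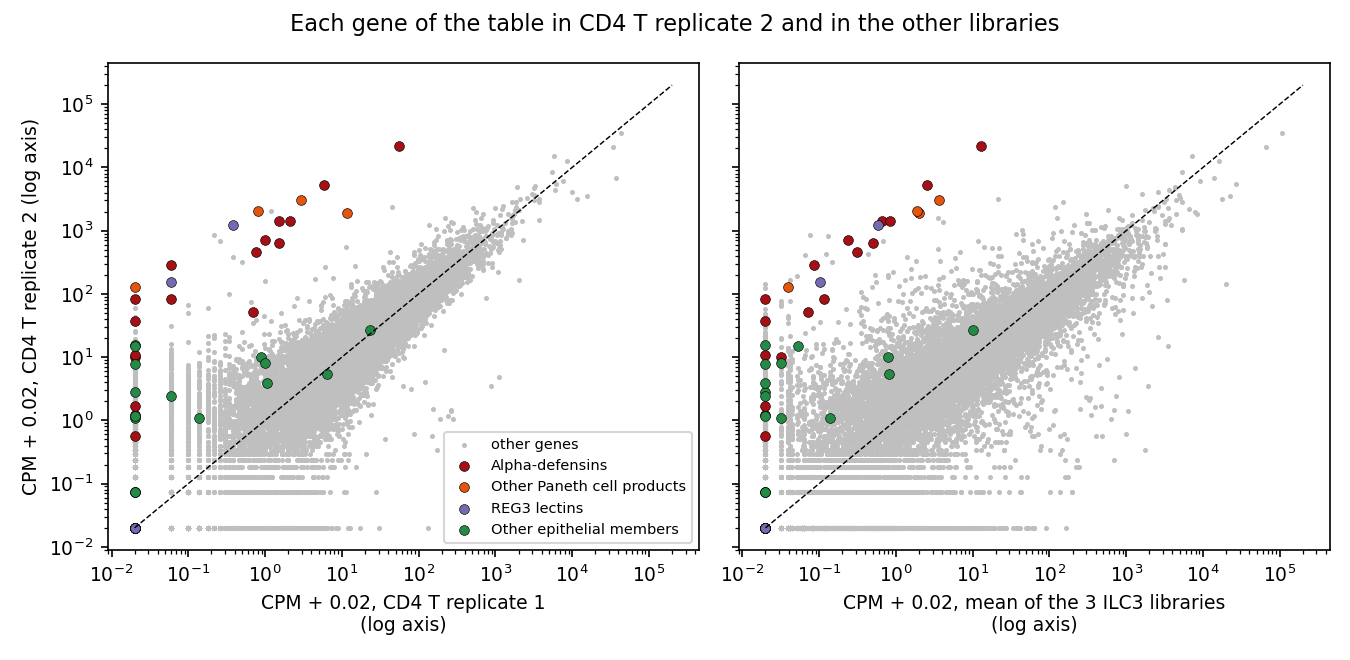
Each gene of the table as CPM plus 0.02 on log axes, in CD4 T replicate 2 against CD4 T replicate 1 (left) and against the mean of the 3 ILC3 libraries (right); colours mark the classes of members and the dashed line marks equal values. The 12 alpha-defensins of at least 20 CPM in CD4 T replicate 2, the 4 other Paneth cell products and Reg3g lie above most other genes, and members with no count lie at the lower left, with Defa24 at 21948 against 55.3 CPM, while Epcam lies near the line at 26.9 against 23.1 CPM.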

How the data were processed

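RNA libraries of 3 ILC3 and 2 CD4 T samples were prepared from sorted cells with a Clontech SMARTer kit for low RNA input, per the labels' protocols. The authors deposited raw counts per NCBI gene identifier. CASAVA 1.8.2, STAR 2.3.0 and the build mm10 are named in the submitters' processing notes; the counting tool, its annotation, its strand setting and its use of multi-mapped reads are not stated there. Of 27179 identifiers, 25275 matched a symbol in RefSeq for GRCm38.p6, of which mm10 is the primary assembly, and 1904 did not.

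Counts were filtered with filterByExpr, scaled with TMM and fitted with edgeR 4.0.16 in R 4.3.3 (quasi-likelihood F test, no covariate, 3 residual degrees of freedom), with Benjamini-Hochberg adjustment over 12747 genes and a threshold of 0.05. A positive log2 fold change is higher in ILC3. The fit was tested on simulated data with the same spread for all genes and every library of a group shifted alike. That test does not cover a single library far above the rest. Counting intervals are exact at 95%, and floors use 3 counts; with 3 against 2 libraries no exact permutation p can go below 0.2. Alternatives were other scalings and filters, DESeq2 1.42.0, limma-voom (limma 3.58.1), a replicate block and leaving out each library.

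All members may be named, with values in every library for those of at least 20 CPM in any library, for the 8 most counted alpha-defensins and for Epcam, Cdh1, Vil1, Krt8, Krt18, Muc2, Olfm4 and Lyz1, and up to 4 genes of each further list. The members and lists were chosen with earlier results of these data known. The result of 1 marker list fixed for the check of the labels is not reported here.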

Additional observations from a re-analysis of the deposited data

How the results depend on the processing

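The number of members called higher in ILC3 was 0 under every alternative run, and 0 at an unadjusted p under 0.05 too (edgeR, DESeq2 and limma-voom). The number called lower was 10 of 17 in the edgeR fit, where 919 of 12747 genes were. It was 10, 14 and 10 with DESeq2 size factors, library size alone and library size without receptor segment genes. Of 12747 genes, 928, 1491 and 917 were called lower in these fits. A filter of 1 CPM in 2 libraries gave 8 of 15 members and 1016 of 11867 genes. The DESeq2 Wald test gave 14 of 17 members and 1858 of 12747 genes. Without a filter on low counts it was 25 of 39 tested members and 1378 of 17840 genes. With limma-voom it was 1 of 17 members and 1402 of 12747 genes. With a replicate block it was 0 of 17 members in edgeR (4 at an unadjusted p under 0.05), against 305 of 12747 genes. Over all genes no share was taken at the unadjusted p. The rule of the set rests on these same libraries, so nothing is read from these counts of members, higher or lower. The labels tie same-numbered ILC3 and CD4 T libraries by nothing but the number. Their deviations correlated at -0.039 and -0.041. With 2 CD4 T libraries the deviations of these are mirror images, so such values cannot tell whether libraries were paired. Leaving out 1 library gave 0 to 20. The log2 difference of summed alpha-defensins was -10.81 to -1.92 and that of the other members -8.75 to -1.26 over the same left-out libraries, with the upper end in each case without CD4 T replicate 2. The same range was -10.31 to 1.26 for Ang4, -10.51 to 0.35 for Itln1 and, with no value without ILC3 replicate 1, where it was not tested, -10.93 to 0.67 for Reg3g. The positive values are those without CD4 T replicate 2. Over all genes, 824 were higher and 919 lower, against 384 and 1491 with library size alone, which moved the median log2 difference of all genes from -0.10 to -0.59. They were 1914 and 1858 with the DESeq2 Wald test, 1317 and 1402 with limma-voom, 1250 and 1378 with no filter, 215 and 305 with the replicate block, and 269 to 1712 and 306 to 960 with 1 library left out. The cause of these shifts was not tested. Members with at most 3 counts in every library numbered 16, and depth sets no more than a limit on them.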

Other observations

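On a list of pancreatic acinar genes, 1 of the 3 tested was called, higher in ILC3. Prss2, a trypsinogen, was 10.9, 21.5 and 26.3 CPM in ILC3 replicates 1 to 3 and 0 and 0.433 CPM in CD4 T replicates 1 and 2, so every ILC3 library was above both CD4 T libraries; 25.5% of all tested genes had that order. Its log2 difference was 6.55 (edgeR adjusted p = 0.0304). Cpb1, a carboxypeptidase, was 6.56, 3.71 and 6.77 CPM in ILC3 and 0.119 and 1.41 CPM in CD4 T and did not pass the test (log2 2.90, edgeR adjusted p = 0.164). Cela1, an elastase, was 2.63, 7.16 and 0 CPM in ILC3 and 10.01 and 23.03 CPM in CD4 T. Of the 13 pancreatic acinar genes on the list, 9 had no count in any library, among them Prss1, Cpa1 and Pnlip.

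Among the junction genes, Tspan8 and Cdh17, both known from intestinal epithelium, were uneven within ILC3. Tspan8 was 0, 0 and 10.8 CPM in ILC3 replicates 1 to 3 and 0 and 10.5 CPM in CD4 T. Cdh17, an intestinal cadherin, was 1.22, 0.704 and 6.77 CPM in ILC3 and 0 and 0.054 CPM in CD4 T, the opposite order to that of the alpha-defensins, and its difference did not pass the test (log2 6.56, edgeR adjusted p = 0.0839).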
